A study of Mus musculus with 9 samples.

Results

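A group of 10 keratin genes, chosen by name, was followed in 4T1 primary tumors: Krt7, Krt8, Krt18, Krt19 and Krt20, which mark luminal or simple epithelium, Krt5, Krt14 and Krt15, which mark basal epithelium, and Krt6a and Krt17, which are known as stress or wound keratins. They were 10 of the 38 keratin genes with a row in the gene counts, and of 18755 genes in all. Of the 10, 7 had enough reads to be tested between treatments, while Krt6a, Krt15 and Krt17 did not.

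4T1 is a mouse mammary carcinoma cell line that arose in a BALB/c mouse. In every group, 1000000 of these cells had been placed in a mammary fat pad of female BALB/c mice aged 6 to 10 weeks, and dosing began on day 15 and lasted 5 days. The vehicle group (n = 3 tumors) received only Natrosol at 0.5%, a hydroxyethylcellulose carrier. The BI group (n = 6 tumors) received 50 mg/kg BI 853520, an inhibitor of focal adhesion kinase (FAK), dissolved in the same carrier. BI 853520 was given daily by oral gavage. RNA was taken from whole tumor pieces, so host cells are part of every library, and all tumors stem from 1 cell line. The labels do not say whether the 9 tumors came from 9 mice, so the p-values measure the spread between these samples. Assigned reads ranged from 21727879 to 33850245 in vehicle-treated and from 16931607 to 22349873 in BI 853520-treated tumors. A count of 3, taken as the floor of detection, corresponds to 0.0886 to 0.177 reads per 1000000 assigned reads before TMM scaling, and this covers counting error only. In all that follows, CPM are reads per 1000000 assigned reads after TMM scaling.

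Keratins are the intermediate filament proteins of epithelial cells. Each filament is built from obligate dimers of a type I (acidic) and a type II (basic) chain, which tie into desmosomes at cell contacts and hemidesmosomes at the basement membrane. In the mammary gland the inner luminal cells carry Krt8, Krt18 and Krt19, and the outer basal, myoepithelial cells carry Krt5 and Krt14. Loss of keratins and gain of vimentin are used as signs of an epithelial-mesenchymal transition.

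The 10 genes comprise 6 type I and 4 type II chains. In mm9, 5 of them (Krt14, Krt15, Krt17, Krt19 and Krt20, all type I) lie on chromosome 11 and 5 (Krt5, Krt6a, Krt7, Krt8 and Krt18) on chromosome 15. Krt18 is the type I gene that sits in the type II cluster, beside Krt8. Krt8 (chr15:101827142-101834773, minus strand) and Krt18 (chr15:101858647-101862457, plus strand) are transcribed away from each other, with starts 23.9 kb apart. No exon of the 10 genes overlapped an exon of another annotated gene. RefSeq promoters (GRCm38.p6) were found for 6 of the 10, namely Krt5, Krt7, Krt8, Krt14, Krt18 and Krt20. The 250 bases before the start are given for Krt8 and Krt18, the neighbours that fell after treatment, and for Krt7, a simple epithelial keratin that was not called. The windows are chr15:102004343-102004592 (minus strand), chr15:102027966-102028215 (plus strand) and chr15:101412153-101412402 (plus strand), and capitals mark GC boxes.
Krt8: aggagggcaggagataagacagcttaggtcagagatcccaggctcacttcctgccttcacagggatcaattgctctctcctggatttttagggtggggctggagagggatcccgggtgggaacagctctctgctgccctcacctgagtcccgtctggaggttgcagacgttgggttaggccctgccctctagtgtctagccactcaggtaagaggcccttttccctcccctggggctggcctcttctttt
Krt18: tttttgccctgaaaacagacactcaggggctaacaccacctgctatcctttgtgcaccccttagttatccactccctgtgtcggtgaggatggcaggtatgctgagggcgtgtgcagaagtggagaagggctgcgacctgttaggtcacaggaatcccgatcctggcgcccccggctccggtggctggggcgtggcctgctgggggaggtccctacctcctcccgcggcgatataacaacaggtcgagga
Krt7: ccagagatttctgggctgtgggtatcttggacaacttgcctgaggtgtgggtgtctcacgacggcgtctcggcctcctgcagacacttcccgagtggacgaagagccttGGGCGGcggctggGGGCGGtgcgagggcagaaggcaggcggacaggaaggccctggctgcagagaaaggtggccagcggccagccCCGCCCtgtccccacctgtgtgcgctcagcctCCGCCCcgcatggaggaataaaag
The windows were searched on both strands for the TATA box, as TATAAA, for the GC box that Sp1 factors bind, as GGGCGG, and for the site of AP-1 factors, as TGANTCA. The last motif was the binding site of NF-Y factors, as CCAAT, and none of these motifs contains another. Krt7 held 4 GC boxes, 141, 128, 56 and 24 bases before its start, and Krt20 held TATAAA 29 bases before its start. These letters were not in the windows of Krt5, Krt8, Krt14 and Krt18. Of 32851 promoter windows of this length, 12.4% held the TATA box, 32.7% the GC box, 6.75% the AP-1 site and 33.8% the NF-Y site.

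The first question was which keratins these tumors express. Per kilobase of exon, the vehicle-treated tumors held Krt18 at 413 ± 41.2 CPM (SD, n = 3), rank 86 of all genes, and Krt8 at 265 ± 32.3 CPM, rank 155. Krt19, a type I chain of luminal and ductal cells, followed at 7.07 ± 1.06 CPM per kilobase. The levels of these 3 were apart by more than the spread of the vehicle-treated tumors, and Krt19 was likewise above all that follow. Krt7 (0.703 ± 0.137), Krt14 (0.557 ± 0.493), Krt5 (0.307 ± 0.353), Krt17 (0.301 ± 0.369) and Krt20 (0.247 ± 0.0827 CPM per kilobase) overlapped with their neighbours in this order. Krt6a, at 0.0851 ± 0.1 CPM per kilobase, and Krt15, at 0.0349 ± 0.0302, came last and overlapped with each other. Krt8 and Krt18 together made up 98.4% to 99.0% of the summed per-kilobase level of the 10 keratins in vehicle-treated and 95.5% to 98.9% in BI 853520-treated tumors. Krt5, Krt14 and Krt15 together made up 0.0217% to 0.301% and 0.0458% to 0.335%, respectively. By these levels the luminal dimer was abundant and the basal keratins had few reads in both groups.

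**Figure D1:**
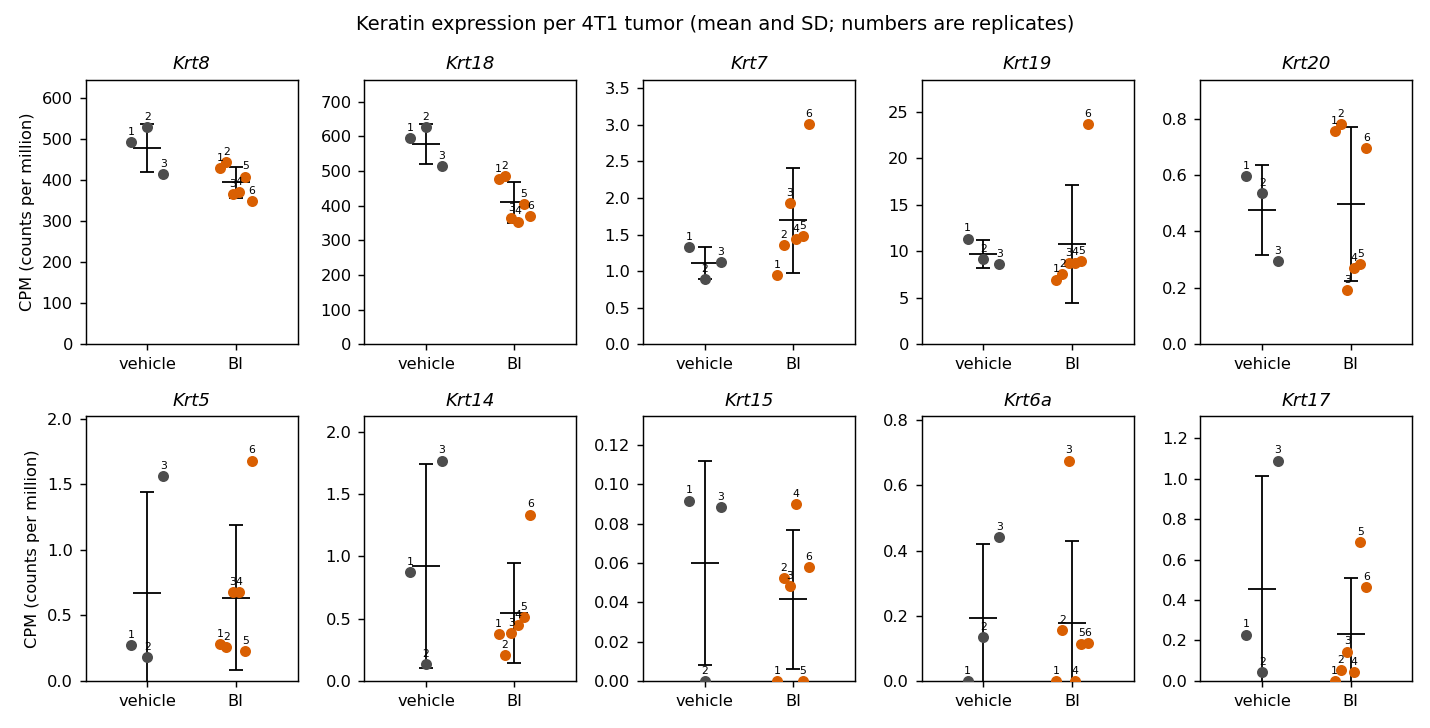
CPM (vertical axis, a scale for each gene) of the 10 keratins in every tumor, with replicate numbers, for vehicle (n = 3, grey) and BI (n = 6, orange); bars give the mean and SD, and lower bars that reach under 0 are not drawn. Krt18 in all 6 BI-treated tumors (354 to 486 CPM) lay below the 3 vehicle-treated tumors (515 to 627 CPM), while the other 9 genes overlapped between the groups.

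The second question was whether 5 days of BI 853520 moved keratin expression. Krt8 and Krt18, the simple epithelial dimer, fell, and none of the 7 tested keratins rose by the edgeR quasi-likelihood test at an adjusted p of at most 0.05. Thus 2 of 7 were lower and 0 of 7 higher, where 14.1% of all 13966 tested genes were lower and 14.6% higher. By the study's own cutoffs, an unadjusted p of at most 0.05 with a 1.5-fold change, 0 of 7 were lower and 0 of 7 higher, against 3.57% and 9.57% of all tested genes. At an unadjusted p of at most 0.05 without the fold cutoff, 2 of the 7 passed, and these were Krt8 and Krt18. One of the 7, Krt18, had every BI-treated tumor below every vehicle-treated tumor, and none had every BI-treated tumor above, where 14% and 14.1% of all tested genes were so placed. The tested keratins had a median log2 fold change of -0.21, with 3 positive and 4 negative values, beside -0.0037 over all tested genes.

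Krt18, the type I chain of simple epithelia, was at 594, 627 and 515 CPM in vehicle replicates 1 to 3. In BI replicates 1 to 6 it was at 477, 486, 365, 354, 404 and 371 CPM. All 6 BI-treated tumors were thus below the lowest vehicle-treated tumor, and BI replicates 1 and 2 were closest to it. The means were 579 ± 57.7 CPM (SD, n = 3) and 409 ± 58.3 CPM (n = 6), and the mean thus decreased by 29.2%. The log2 fold change was -0.50 (SE 0.111), with an edgeR adjusted p of 0.00636, and the exact two-sided permutation p was 0.0238, the smallest that 3 against 6 tumors allow. With any 1 tumor left out the log2 fold change stayed between -0.58 and -0.44, and the edgeR adjusted p reached 0.0334 at most.

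Krt8, the type II chain that dimerizes with Krt18, was at 493, 528 and 414 CPM in vehicle replicates 1 to 3. In BI replicates 1 to 6 it was at 428, 444, 365, 371, 408 and 347 CPM. The groups overlapped, because vehicle replicate 3 was below BI replicates 1 and 2, and 4 of 6 BI-treated tumors were below all vehicle-treated tumors. The means were 478 ± 58.3 and 394 ± 38.4 CPM. The log2 fold change was -0.28 (SE 0.0949), with an edgeR adjusted p of 0.0444, and the exact two-sided permutation p was 0.0714. The call was lost without vehicle replicate 1, vehicle replicate 2 or any 1 of BI replicates 3 to 6, where edgeR gave adjusted p-values from 0.0651 to 0.195 and log2 fold changes from -0.28 to -0.20. It was also lost with a filter that kept genes with 1 CPM or more in 3 or more tumors (edgeR adjusted p = 0.0523).

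The partners did not fall by the same proportion. The per-kilobase ratio of Krt18 to Krt8 was 1.55, 1.53 and 1.60 in the vehicle-treated tumors. In BI replicates 1 to 6 it was 1.44, 1.41, 1.29, 1.23, 1.28 and 1.38. All BI-treated tumors were below all vehicle-treated tumors, and the mean ratio was 1.56 ± 0.0366 (n = 3) against 1.34 ± 0.0829 (n = 6), a difference of -0.23 on the log2 scale. The type I share of the 10 keratins was accordingly 60.8% to 61.9% in vehicle-treated and 55.7% to 59.3% in BI 853520-treated tumors. This ratio was chosen as a description of a known dimer and no test was made of it.

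The bulk libraries hold tumor and host RNA, so fewer cells of a type and less RNA per cell cannot be told apart. Host cell markers were read beside the fall of Krt8 and Krt18, against 14.6% of all tested genes higher and 14.1% lower. Of 17 leukocyte genes tested, 12 were higher and 2 (S100a8 and S100a9) lower, and the summed leukocyte level was 2493 to 2624 CPM in vehicle-treated and 3342 to 4621 CPM in BI 853520-treated tumors. Of 10 endothelial genes, 4 were higher and none lower, with summed levels of 452 to 462 and 501 to 610 CPM. All 4 endothelial calls (Cdh5, Kdr, Tie1 and Cldn5) were lost without vehicle replicate 3 (edgeR adjusted p from 0.0714 to 0.151), and 1 or 2 of them without vehicle replicates 1 or 2 or BI replicate 1 (0.0509 to 0.0898). Of 12 fibroblast genes, 2 (Col1a2 and Thy1), or 16.7%, were higher and none lower, a share near that of all genes, with summed levels of 2169 to 3751 and 2875 to 6447 CPM. Both fibroblast calls were lost without vehicle replicates 1 or 2, and that of Col1a2 also without BI replicates 1, 4, 5 or 6 (edgeR adjusted p from 0.0528 to 0.161). The summed level of the luminal identity genes, which hold no keratin, was 281 to 296 CPM in vehicle-treated and 262 to 323 CPM in BI 853520-treated tumors. No leukocyte, endothelial or fibroblast marker was at or under 3 counts in every tumor. The part of these markers in the fall of Krt8 and Krt18 was not tested. The ratio of Krt18 to Krt8 is a value within each tumor, and the part of cell composition in it was not tested either.

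**Figure D2:**
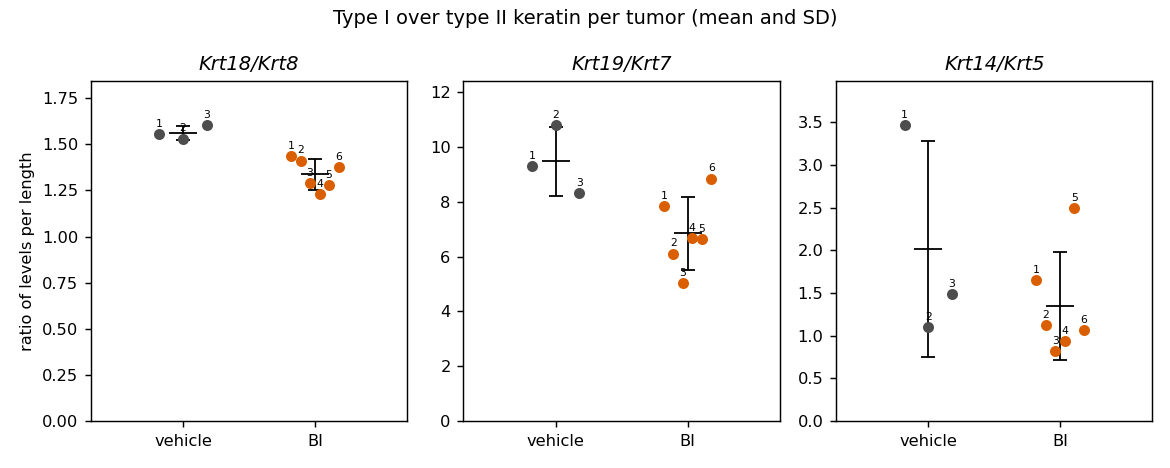
Ratio of the type I to the type II chain, both per kilobase (vertical axis, from 0), in every tumor for Krt18/Krt8, Krt19/Krt7 and Krt14/Krt5, with mean and SD for vehicle (n = 3, grey) and BI (n = 6, orange) and replicate numbers. Krt18/Krt8 was 1.53 to 1.60 in vehicle-treated and 1.23 to 1.44 in BI-treated tumors, and the other ratios overlapped between the groups.

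The other luminal keratins were not called. Krt19 (chr11:100002124-100009979, minus strand) was at 11.4, 9.13 and 8.63 CPM in the vehicle-treated tumors and at 6.94, 7.56, 8.74, 8.77, 8.96 and 23.7 CPM in BI replicates 1 to 6. BI replicate 6 was far above the rest. BI replicates 3 to 5 lay within the vehicle-treated range, near its lower end, and BI replicates 1 and 2 lay below it. The log2 fold change was 0.15 (SE 0.341, edgeR adjusted p = 0.783), and -0.24 (edgeR adjusted p = 0.199) without BI replicate 6, so 1 tumor set its direction.

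Krt7 (chr15:101241474-101260744, plus strand), a type II chain of glandular and ductal epithelium, had far fewer reads, at 1.33, 0.895 and 1.12 CPM in vehicle-treated tumors. In BI replicates 1 to 6 it was at 0.945, 1.36, 1.93, 1.44, 1.48 and 3.02 CPM, so that 5 of 6 BI-treated tumors were above all vehicle-treated tumors and BI replicate 1 was not. The log2 fold change was 0.59 (SE 0.338), which did not pass (edgeR adjusted p = 0.209, exact two-sided permutation p = 0.143). With 1 tumor left out the log2 fold change ran from 0.36, without BI replicate 6, to 0.73, without vehicle replicate 1 (edgeR adjusted p from 0.111 to 0.434). Without BI replicate 1 Krt7 passed the study's cutoffs (log2 fold change 0.72) but not the adjusted p.

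The ratio of Krt19 to Krt7 per kilobase was 8.32 to 10.8 in vehicle-treated and 5.04 to 8.85 in BI 853520-treated tumors. The groups overlapped through BI replicate 6. Krt20 (chr11:99289717-99299464, minus strand), a type I chain best known from intestinal epithelium, was at 0.596, 0.537 and 0.295 CPM in vehicle-treated tumors and at 0.756, 0.782, 0.193, 0.270, 0.285 and 0.696 CPM in BI replicates 1 to 6. These are 4 to 16 counts a tumor, and both groups spanned low and high values (log2 fold change 0.09, SE 0.481, edgeR adjusted p = 0.904).

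**Figure D3:**
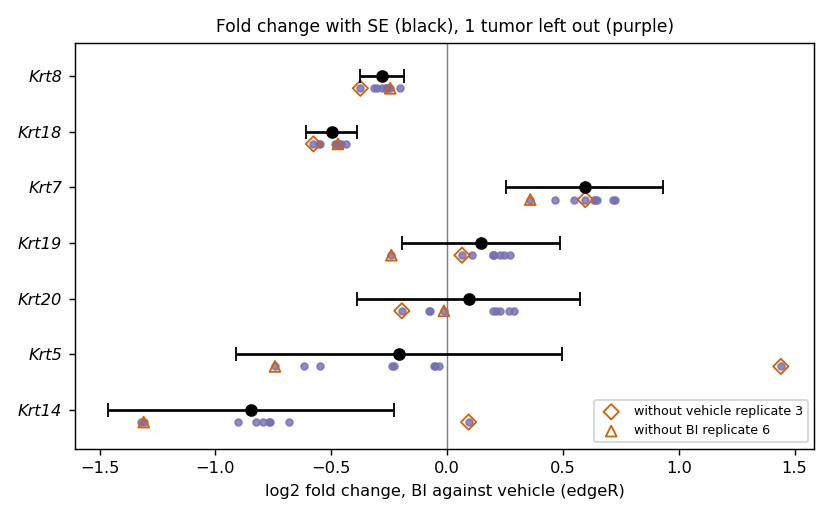
Log2 fold change of BI against vehicle (horizontal axis, edgeR) for the 7 tested keratins, with its SE (black), and the values with each of the 9 tumors left out (purple, with vehicle replicate 3 and BI replicate 6 marked in orange). Krt18 stayed between -0.58 and -0.44 in all 9 fits, whereas Krt5 ran from -0.74 to 1.44 and crossed 0 when vehicle replicate 3 was left out.

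The basal keratins were low in both groups, and single tumors set their values. Krt5 (chr15:101537501-101543322, minus strand), the type II chain of basal cells, was at 0.275, 0.179 and 1.56 CPM in the vehicle-treated tumors (6, 4 and 53 counts). It was at 0.283, 0.261, 0.676, 0.675, 0.228 and 1.68 CPM in BI replicates 1 to 6. Vehicle replicate 3 and BI replicate 6 were high and the rest low, so the groups overlapped fully. The log2 fold change was -0.21 (SE 0.702, edgeR adjusted p = 0.851), and 1.44 (edgeR adjusted p = 0.249) without vehicle replicate 3.

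Krt14 (chr11:100064476-100068862, minus strand), the type I partner of Krt5, was at 0.871, 0.134 and 1.77 CPM in vehicle-treated tumors and at 0.378, 0.209, 0.386, 0.450, 0.514 and 1.33 CPM in BI replicates 1 to 6. Again vehicle replicate 3 and BI replicate 6 were the highest of their groups. The log2 fold change was -0.85 (SE 0.616, edgeR adjusted p = 0.329). It was 0.09 without vehicle replicate 3, while without vehicle replicate 2 or without BI replicate 6 it was -1.32 and -1.31 and passed the study's cutoffs but not the adjusted p. The ratio of Krt14 to Krt5 per kilobase was 1.10 to 3.46 in vehicle-treated and 0.821 to 2.50 in BI 853520-treated tumors.

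Krt15 (chr11:99993072-99997263, minus strand), a type I chain of basal and hair follicle stem cells, had 2, 0 and 3 counts in vehicle-treated and 0, 1, 1, 2, 0 and 1 counts in BI 853520-treated tumors. It was at or under the floor in every tumor, so no fold is given. Krt6a (chr15:101520363-101524738, minus strand), a type II chain induced in wounded or hyperproliferative epidermis, had 0, 3 and 15 counts in vehicle-treated and 0, 3, 14, 0, 2 and 2 counts in BI 853520-treated tumors. Krt17 (chr11:100117531-100122343, minus strand), its type I counterpart, had 5, 1 and 37 counts in vehicle-treated and 0, 1, 3, 1, 12 and 8 counts in BI 853520-treated tumors. Each of these was carried by 1 or a few tumors and a difference between the groups was not detectable at this depth. Shared stretches limit these assignments: 47.9% of the 50-base stretches of Krt6a transcripts also occur in Krt6b, Krt5 or Gm5414, 14.4% of those of Krt14 in Krt16 or Krt17, 8.36% of those of Krt5 and 3.75% of those of Krt17 in other genes. For Krt7, Krt8, Krt18, Krt19 and Krt20 the share was 0%. The search covered protein-coding transcripts only, so matches elsewhere in the genome were not looked for.

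**Figure D4:**
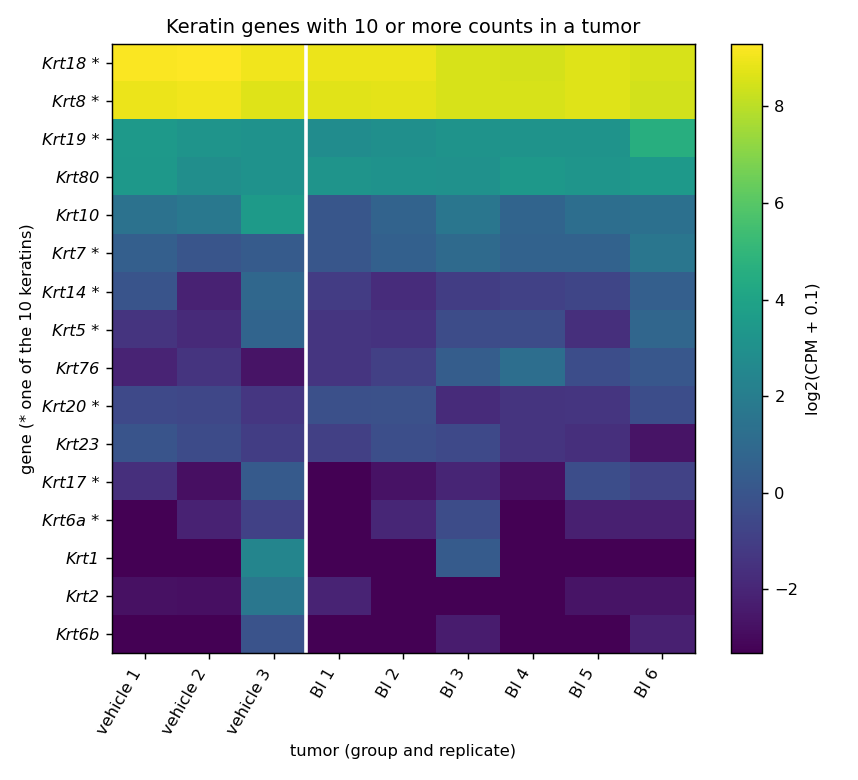
Colour scale of log2(CPM + 0.1) for the keratin genes that had 10 or more counts in some tumor (rows, * marks the 10 keratins) in the 3 vehicle-treated and 6 BI-treated tumors (columns, split by the white line). Krt18 and Krt8 exceed all others in every tumor, and vehicle replicate 3 stands out for Krt1 (181 counts), Krt2 (105 counts) and Krt10 (392 counts).

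The high basal keratins of vehicle replicate 3 came with epidermal genes. Krt1, the type II keratin of differentiating epidermis, had 181 counts there, 23 in BI replicate 3 and 0 in the other 7 tumors. Among 21 squamous differentiation genes above 3 counts in some tumor, 13 were highest in vehicle replicate 3. Of the 25 with a row, 10 were above 3 counts in that tumor only, among them Krt2 (105 counts), Lor (34 counts, the cornified envelope protein loricrin), Krtdap (33 counts), Krt6b (28 counts) and Krt16 (9 counts). That tumor also had the most assigned reads (33850245). Sprr1b, among the 10, was higher by CPM in BI replicate 6 (0.174) than in vehicle replicate 3 (0.118). The list's summed level, led by the transcription factor gene Klf4 (26.2 ± 5.2 CPM in vehicle-treated tumors), was 43.6 to 65.6 CPM in vehicle-treated and 49.4 to 58.6 CPM in BI 853520-treated tumors, and Krt13, Krt78, Sprr2a1 and Sprr2d were at or under 3 counts throughout. Their part in the Krt5, Krt14 and Krt17 values was not tested. Without this library the log2 fold changes of Krt8 and Krt18 were -0.37 and -0.58, larger in size than with it.

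The other high tumor, BI replicate 6, was the highest of all 9 for Krt7 and Krt19 and for Krt5. It was also the highest for 16 of 23 luminal identity genes above 3 counts, among them Epcam, an epithelial adhesion molecule (59, 49 and 51 counts in vehicle-treated and 42, 58, 80, 93, 56 and 177 in BI-treated tumors). It was the highest for 10 of 10 adipocyte and 9 of 12 fibroblast genes, and for 3 of 17 leukocyte genes. Its summed adipocyte level was 476 CPM, where the other 8 tumors were at 76.6 to 236 CPM, and no adipocyte marker was at or under 3 counts throughout. Of the 10 adipocyte genes, 1 (Pparg), or 10%, was higher and none lower, beside 14.6% and 14.1% of all tested genes. The Pparg call was lost without vehicle replicates 2 or 3 (edgeR adjusted p = 0.055 and 0.0743). Summed levels of the adipocyte genes were 76.6 to 123 CPM in vehicle-treated and 115 to 476 CPM in BI 853520-treated tumors. The part of these cells in the Krt7 and Krt19 values was not tested. The share of Krt7, Krt19 and Krt20 in the 10 keratins was 4.08% in this tumor and 1.00% to 1.63% in the other 8.

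A list of genes linked to keratin binding, assembly or turnover was read beside the filaments. Of 19 such genes tested, 6 were lower and 1 higher, against the 14.1% and 14.6% of all genes, and their median log2 fold change was -0.12. Krtcap3 (keratinocyte associated protein 3) was at 28.8, 23.9 and 24.1 CPM in vehicle-treated and at 12.5 to 19.8 CPM in BI 853520-treated tumors, without overlap (log2 fold change -0.66, SE 0.12, edgeR adjusted p = 0.00204). Eppk1, the linker epiplakin that binds keratin networks, was at 4.45, 4.25 and 4.48 CPM and at 2.17 to 3.20 CPM (log2 fold change -0.86, SE 0.161, edgeR adjusted p = 0.0023). Fam83h, which recruits casein kinase to keratin filaments, was at 54.8 to 59.7 and 38.7 to 49.6 CPM (log2 fold change -0.33, SE 0.0744, edgeR adjusted p = 0.00686). These 3 kept an adjusted p of at most 0.05 with any 1 tumor left out. The other lower calls were Krtcap2 (log2 fold change -0.26), lost without vehicle replicates 1 or 2, Pnn (-0.22), lost without vehicle replicates 2 or 3, and Fbf1 (-0.20), lost without any 1 of the vehicle replicates or BI replicates 1, 4 or 6 or without the count filter (edgeR adjusted p = 0.0514). The higher call was Evpl (1.06), the cornified envelope linker envoplakin, lost without vehicle replicate 3. With 1 tumor left out, the edgeR adjusted p-values of the lost calls were 0.0584 to 0.142. Krtcap2 and Krtcap3 are named for keratinocytes and not for keratin binding, and Krtcap2 is a subunit of the oligosaccharyltransferase. Dst, the list's most abundant gene and a linker between keratin and hemidesmosomes, was at 922 ± 17.9 and 868 ± 119 CPM (edgeR adjusted p = 0.557).

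At the junctions that hold keratin, none of 8 desmosome genes tested was called, with a median log2 fold change of 0.18. Jup (plakoglobin), the most abundant, was at 179 ± 26.7 and 190 ± 26.5 CPM (edgeR adjusted p = 0.644). Of 8 hemidesmosome genes tested, 2 (25%) were lower and none higher, beside 14.1% and 14.6% of all tested genes. Itga6, the integrin subunit that anchors basal cells, was at 445, 372 and 446 CPM in vehicle-treated and at 240 to 304 CPM in BI 853520-treated tumors, without overlap (log2 fold change -0.63, SE 0.0849, edgeR adjusted p = 0.000295). Itgb4, the partner of Itga6 in hemidesmosomes, was at 285 ± 39.4 and 337 ± 21.3 CPM (log2 fold change 0.24, edgeR adjusted p = 0.0529).

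Of 11 other intermediate filament genes tested, 1 was higher and 1 lower, or 9.09% each way, beside 14.6% and 14.1% of all tested genes. Vim, the filament of mesenchymal cells, was the most abundant of these and the keratins by CPM, at 5477, 5483 and 4522 CPM in vehicle-treated and at 4369, 3139, 3251, 3572, 3851 and 4027 CPM in BI 853520-treated tumors. All BI-treated tumors were below all vehicle-treated tumors (log2 fold change -0.48, SE 0.114, edgeR adjusted p = 0.00903). The vimentin, Krt18 and Krt8 genes thus each fell, though the Krt8 groups overlapped and its call was lost when some single tumors were left out. Sync (syncoilin) was higher (0.66, edgeR adjusted p = 0.0394), a call lost without vehicle replicates 1 or 3 or BI replicates 2, 3 or 5 (edgeR adjusted p from 0.0648 to 0.158). Nefl, Nefm and Ina, filaments of neurons, were at or under 3 counts in every tumor.

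Luminal and basal identity genes that are not keratins gave the setting of the luminal and basal keratins. Of 20 luminal genes tested, 5 were higher and 1 lower, with a median log2 fold change of 0.53. Of the 5 tested luminal keratins, Krt8 and Krt18 were lower, and Krt7, Krt19 and Krt20 had positive log2 fold changes that did not pass. Esr1, the estrogen receptor, was at 2.15, 1.88 and 2.39 CPM in vehicle-treated and at 3.62 to 4.48 CPM in BI 853520-treated tumors (log2 fold change 0.92, SE 0.155, edgeR adjusted p = 0.00119). Kit, a receptor of luminal progenitors, was at 13.1 to 14.4 and 18.3 to 29.3 CPM (0.71, edgeR adjusted p = 0.00475), and Elf5, a factor of alveolar cells, at 0.134 to 0.183 and 0.425 to 1.80 CPM (2.29, edgeR adjusted p = 0.00909). In these 3 every BI-treated tumor was above every vehicle-treated tumor, as in 14.1% of all tested genes. All 3 kept their calls with any 1 tumor left out. But Elf5, with 4, 3 and 6 counts in vehicle-treated tumors, passed the filter on low counts only through the BI-treated tumors, where it was high. Cldn4, of the same list, had every BI-treated tumor below every vehicle-treated tumor, as in 14% of all tested genes. It was not called (log2 fold change -0.67, edgeR adjusted p = 0.0939). The call of Prlr (1.56) was lost without any 1 of the vehicle replicates or BI replicates 2 to 4 (edgeR adjusted p from 0.0541 to 0.148), and with limma-voom (adjusted p = 0.112). That of Csn3 (1.83) was lost without vehicle replicates 2 or 3 or BI replicates 2, 3 or 6 (0.056 to 0.165), and that of Elf3 (-0.69) without vehicle replicates 1 or 3 or BI replicates 1, 3, 4 or 6 (0.0569 to 0.197). Gata3, the most abundant luminal factor, was at 133 ± 7.89 and 130 ± 15.6 CPM (edgeR adjusted p = 0.831), and Ovol1 was at or under 3 counts in every tumor. Cdh1, the epithelial E-cadherin, was at 18.7 to 19.8 CPM in vehicle-treated and at 12.5 to 36.7 CPM in BI 853520-treated tumors.

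Of 19 basal and myoepithelial genes tested, 2 were higher and 1 (Itga6) lower, with a median log2 fold change of 0.23. Oxtr, the oxytocin receptor of myoepithelial cells, had 3, 3 and 11 counts in vehicle-treated tumors. It passed the filter on low counts only through the BI-treated tumors, where it was high. It was higher (1.92, edgeR adjusted p = 0.0289) and lost its call without vehicle replicates 1 or 2 or BI replicate 4 (edgeR adjusted p from 0.0509 to 0.0998). Acta2, smooth muscle actin, was higher (0.27, edgeR adjusted p = 0.0465) and lost its call without any 1 of the vehicle replicates or BI replicates 1, 4 or 5 (edgeR adjusted p from 0.0605 to 0.204), with library size scaling alone (0.0538) and without the count filter (0.0554). Trp63, the basal factor that drives Krt5 and Krt14 in skin, was at 0.447 to 0.884 CPM in vehicle-treated and at 0.378 to 0.742 CPM in BI 853520-treated tumors, highest in vehicle replicate 3. In percent of tested genes, 25% of the luminal list was higher and 5% lower, and 10.5% of the basal list was higher and 5.26% lower, beside 14.6% and 14.1% of all genes.

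**Figure D5:**
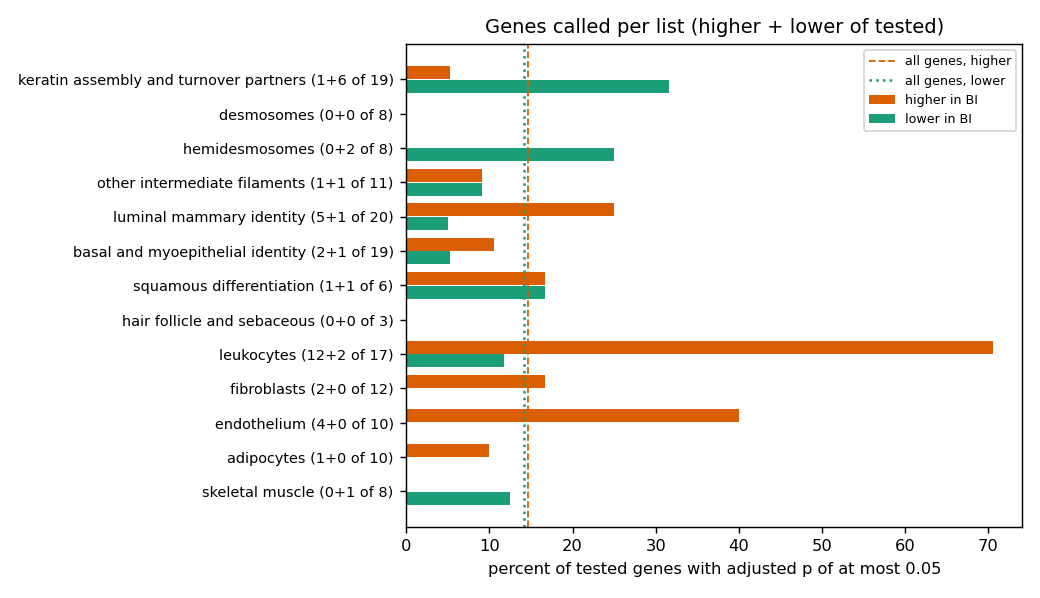
Percent of the tested genes of each list (horizontal axis) that were higher (orange) or lower (green) in BI at an edgeR adjusted p of at most 0.05, with the counts beside each name; the vertical lines mark the shares over all tested genes (14.6% higher, 14.1% lower). The longest bar is that of the leukocyte genes, 12 of 17 higher, and the list of keratin partners had 6 of 19 lower.

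Among the 28 further keratin genes with a row, 17 were at or under 3 counts in every tumor. The 4 that were tested were Krt10, Krt23, Krt76 and Krt80. Of these 4, 1 was higher and 1 lower, where 14.6% of all tested genes were higher and 14.1% lower. Per kilobase and averaged over all tumors, the highest of the 28 were Krt80 (5.25 CPM), Krt10 (1.54), Krt76 (0.305), Krt23 (0.301) and Krt1 (0.293). Krt80, a type II chain found in many epithelia, was at 8.81 ± 1.5 and 9.56 ± 1.07 CPM and was thus as abundant by CPM as Krt19. Krt76, a type II chain of the hard palate, had 3, 6 and 2 counts in vehicle-treated and 6, 8, 25, 51, 12 and 17 counts in BI 853520-treated tumors. Its CPM did not overlap between the groups (log2 fold change 2.73, SE 0.743, edgeR adjusted p = 0.0174), and the call was lost without vehicle replicate 1 (edgeR adjusted p = 0.0597) or vehicle replicate 3 (0.0895). Krt76 passed the filter on low counts only through the BI-treated tumors, the group where it was high, so its call is not independent of the filter. Krt10, the type I partner of Krt1 in epidermis, had 57, 72 and 392 counts in vehicle-treated and 20, 29, 61, 35, 39 and 42 counts in BI 853520-treated tumors. It was lower in the BI group (log2 fold change -1.61, SE 0.439, edgeR adjusted p = 0.0176), but at -0.59 (edgeR adjusted p = 0.265) without vehicle replicate 3. Both belong to the squamous differentiation list, of which 6 genes were tested in all. Of 3 hair follicle and sebaceous genes tested, none was called, and 9 of the 15 with a row were at or under 3 counts in every tumor. Of 8 skeletal muscle genes tested, 1 (Tnni2), or 12.5%, was lower and none higher, beside 14.1% and 14.6% of all tested genes.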

How the data were processed

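RNA from whole 4T1 tumors (n = 3 vehicle, n = 6 BI 853520) had been made into stranded, poly(A)-selected libraries and sequenced as paired 50-base reads. The authors aligned reads to mm9 with STAR, kept unique hits and deposited whole-number counts per RefSeq gene, made with QuasR. Reads shared with near-identical genes are therefore lost or uncertain for Krt5, Krt6a, Krt14 and Krt17. Use of strand in counting is not given in the sources used here.

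Counts were tested with edgeR 4.0.16 (R 4.3.3) by the quasi-likelihood test with TMM scaling (factors 0.984 to 1.02), after filterByExpr (minimum count 10, minimum total 15), and p-values were adjusted by Benjamini-Hochberg over 13966 genes. Single genes were also compared by exact two-sided permutation over all 84 divisions of the tumors. CPM were divided by exon length in kilobases to compare genes. Alternatives were RLE scaling, library size only, no filter, at least 1 CPM in 3 tumors, DESeq2 1.42.0, limma-voom 3.58.1 and leaving out each tumor. The script was tested on simulated data.

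The 10 keratins and the gene lists (keratin partners, desmosomes, hemidesmosomes, other filaments, luminal, basal, squamous, hair follicle, leukocyte, fibroblast, endothelial, adipocyte and muscle genes) were chosen with earlier results of these data known. The lists share members (Itga6, Itgb4, Dst, Plec, Dsp, Pkp1, Pkp2, Pkp3, Dsg1a and Des). All 10 keratins were named, with other keratins that were called or were the 5 highest per length, and of other lists the 3 genes with the smallest p and the most abundant gene, here only where a keratin result touches them. Other called genes of the lists, tumor-marking genes, Cldn4 and Trp63 were named after their values were seen. Positions are from GENCODE for mm9 and promoters from RefSeq (GRCm38.p6). Symbols were paired with 18700 of 18755 gene identifiers. Flg, Sprr3, Ly6g, Krt27, Krt31, Krt33a, Krt33b, Krt35, Krt72 and Krt85 were not analysed here. A called gene of the lists is not reported here.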

Additional observations from a re-analysis of the deposited data

Results flagged for a closer look

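In the BI group, single tumors stood apart for 4 of the 13 keratins examined by Dixon's test for 6 samples (critical value 0.625). Chance alone flags about 1 in 20 groups of normally distributed values, which the low counts of Krt5, Krt6a and Krt14 need not be. The flags of Krt5, Krt14 and Krt19 fell in the same tumor, so the flags are not independent. Krt19 was at 23.7 CPM in BI replicate 6, with the next tumor at 8.96 CPM and a gap of 0.880 of the group's range. Krt5 in the same tumor was at 1.68 CPM, with the next at 0.676 CPM (0.692 of the range), and Krt14 was at 1.33 CPM, with the next at 0.514 CPM (0.729 of the range). Krt6a was at 0.676 CPM in BI replicate 3, with the next at 0.156 CPM (0.769 of the range), which corresponds to 14 counts against 3 or fewer in the other 5 tumors.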

How the results depend on the processing

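Krt18 was lower, with an adjusted p of at most 0.05, under all 6 other settings and with any 1 of the 9 tumors left out, and no setting called one of the 10 keratins higher at that threshold. The count of keratins lower by adjusted p was 2, but 1 with at least 1 CPM in at least 3 tumors and 1 to 2 with 1 tumor left out. By the study's cutoffs, 0 to 1 keratins were higher (Krt7, without BI replicate 1) and 0 to 1 lower (Krt14, without vehicle replicate 2 or BI replicate 6). With 1 tumor left out, the log2 fold change ran from -0.74 to 1.44 for Krt5, -1.32 to 0.0928 for Krt14, -0.24 to 0.27 for Krt19 and -0.20 to 0.29 for Krt20, so each changed sign, and limma-voom gave -0.0066 for Krt20. For Krt5, Krt14, Krt19 and Krt20 the sign is therefore not set by these data. The other lists held 29 genes higher and 14 lower, where 14.6% and 14.1% of all tested genes were so called. Leukocyte genes made up 12 of the 29, so the pooled counts are not read as a result about the lists together. With 1 tumor left out the counts were 19 to 34 higher and 9 to 17 lower, in settings chosen after seeing the data. The lowest counts came without vehicle replicate 1 and vehicle replicate 3. Krt5, Krt14 and Krt20 were not tested under the filter of 1 CPM. Depth limits Krt6a, Krt15 and Krt17, and 3 vehicle-treated tumors limit all estimates.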
